A study of Mus musculus with 14 samples.

Results

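The miR-181 family was followed through 14 small RNA libraries of mouse bone marrow macrophages and the exosomes they release. Its 6 members were taken by name from the 1250 lines of a table of counts per mature microRNA (miRNA), and all 6 had a line. They are mmu-miR-181a-5p, mmu-miR-181b-5p, mmu-miR-181c-5p and mmu-miR-181d-5p, the guide strands, and mmu-miR-181a-1-3p and mmu-miR-181a-2-3p, the opposite arms of the hairpins that give miR-181a; mmu, for mouse, is left out from here on. The libraries came from exosomes of IL4-stimulated macrophages (4 libraries), exosomes of control macrophages (4), lysates of IL4-stimulated macrophages (3) and lysates of control macrophages (3). IL4 is named only in the titles, where the controls carry WT; the labels call the one stimulated and the other control (wild type), with no strain, age, dose or duration. Nothing says that replicates are separate animals or cultures, so a p-value here speaks of differences among libraries that could be technical. Exosomes, small vesicles shed into culture medium, had been purified on a density gradient, and each title carries a date that 1 IL4 and 1 control library of a compartment share.

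A miRNA hairpin can give a mature strand from each arm. The strand that is loaded into the silencing complex pairs with messenger RNAs mainly through its seed, bases 2 to 8, so that miRNAs with 1 seed share many targets. The miR-181 family is best known from lymphocyte development, where miR-181a sets the sensitivity of the T cell receptor by restraining phosphatases, and miR-181b is known in endothelium as a restraint on NF-kB signalling. In mouse the family is made from 6 hairpins in 3 pairs, and since miR-181a and miR-181b are each encoded by a pair of genes with the same guide strand, only the 3p arms tell the copies apart.

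The guide strands are shown first because their shared seed makes them a family, with the seed in capitals (RefSeq, GRCm38.p6).
miR-181a-5p: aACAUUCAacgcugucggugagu
miR-181b-5p: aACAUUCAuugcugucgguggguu
miR-181c-5p: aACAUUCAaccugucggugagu
miR-181d-5p: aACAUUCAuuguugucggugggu
All 4 guide strands carried the seed ACAUUCA, and none of the other mature miRNAs among the 1679 names in the RefSeq table did. The guide of miR-181c differed from that of miR-181a by an edit distance of 1, a single missing base. Counted from the 5′ end over 23 aligned bases, miR-181b and miR-181d differed by C12U, and miR-181a and miR-181b by A9U, C10U and A21G. Reads of such near copies could be assigned to either line, so the low miR-181c and miR-181d lines are uncertain beside the abundant miR-181a and miR-181b.

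The 3p arms are shown because they differ between the genes of miR-181a, again with bases 2 to 8 in capitals.
miR-181a-1-3p: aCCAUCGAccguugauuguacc
miR-181a-2-3p: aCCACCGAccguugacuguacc
These arms differed at 2 of 22 positions, U5C and U16C counted from the 5′ end, and the first of these lies in the seed. The seed CCAUCGA of miR-181a-1-3p is shared by miR-181c-3p, whereas CCACCGA belonged to miR-181a-2-3p alone. The hairpins are printed with the 3p arm in capitals.
Mir181a-1: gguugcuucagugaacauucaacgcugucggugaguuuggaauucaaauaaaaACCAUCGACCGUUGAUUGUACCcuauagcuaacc
Mir181a-2: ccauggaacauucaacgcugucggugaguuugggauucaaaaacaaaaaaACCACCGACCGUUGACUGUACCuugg
In GRCm38 (mm10), Mir181a-1 lies at chr1:137966455-137966541 on the plus strand, 97 bases before Mir181b-1, and in GENCODE M21 it is in an intron of the non-coding transcript Gm4258. Mir181a-2 lies at chr2:38852735-38852810 on the plus strand, 1019 bases before Mir181b-2, within an intron of the nuclear receptor gene Nr6a1, which is transcribed from the minus strand. Mir181c (chr8:84178873-84178961) and Mir181d (chr8:84178716-84178787) lie 85 bases apart on the minus strand, in an intron of Nanos3, a germ cell gene.

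Depth set what could be seen. Totals ran from 50032 to 411671 counts in IL4 exosomes and from 28417 to 199025 in control exosomes, against 3941480 to 5852831 in IL4 lysates and 5511688 to 6792079 in control lysates. A single count was therefore worth between 2.43 and 35.2 CPM (counts scaled to the library total) in an exosome library, and at most 0.254 CPM in a lysate. Myeloid miRNAs (both arms of miR-223 and miR-142a) had counts in all groups for 4 of 4 lines, with summed levels of 12156 to 18336 CPM in IL4 lysates and 27213 to 32466 CPM in control lysates. The exosomes also held markers of other cells: the 4 erythroid lines summed to 21786 to 30466 CPM in IL4 exosomes and 29528 to 55319 CPM in control exosomes, against 120 to 152 CPM in IL4 lysates and 117 to 211 CPM in control lysates.

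The family took 0.530% ± 0.055 of IL4 lysate counts and 0.350% ± 0.055 of control lysate counts (SD, n = 3 each), and 0.416% ± 0.110 of IL4 exosome counts and 0.394% ± 0.092 of control exosome counts (SD, n = 4 each). Nearly all of it was 2 guide strands. Together miR-181a-5p and miR-181b-5p made up 95.2% to 98.6% of the family in IL4 exosomes, 96.2% to 98.4% in control exosomes, 97.7% to 98.3% in IL4 lysates and 96.5% to 97.7% in control lysates. The mature strands are 22 to 24 bases long, so levels were compared without scaling by length. In every library miR-181a-5p was the highest of the 6 lines and miR-181b-5p came next. The remaining 4 lines lay far below, and in exosomes they rested on a handful of counts each.

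**Figure D1:**
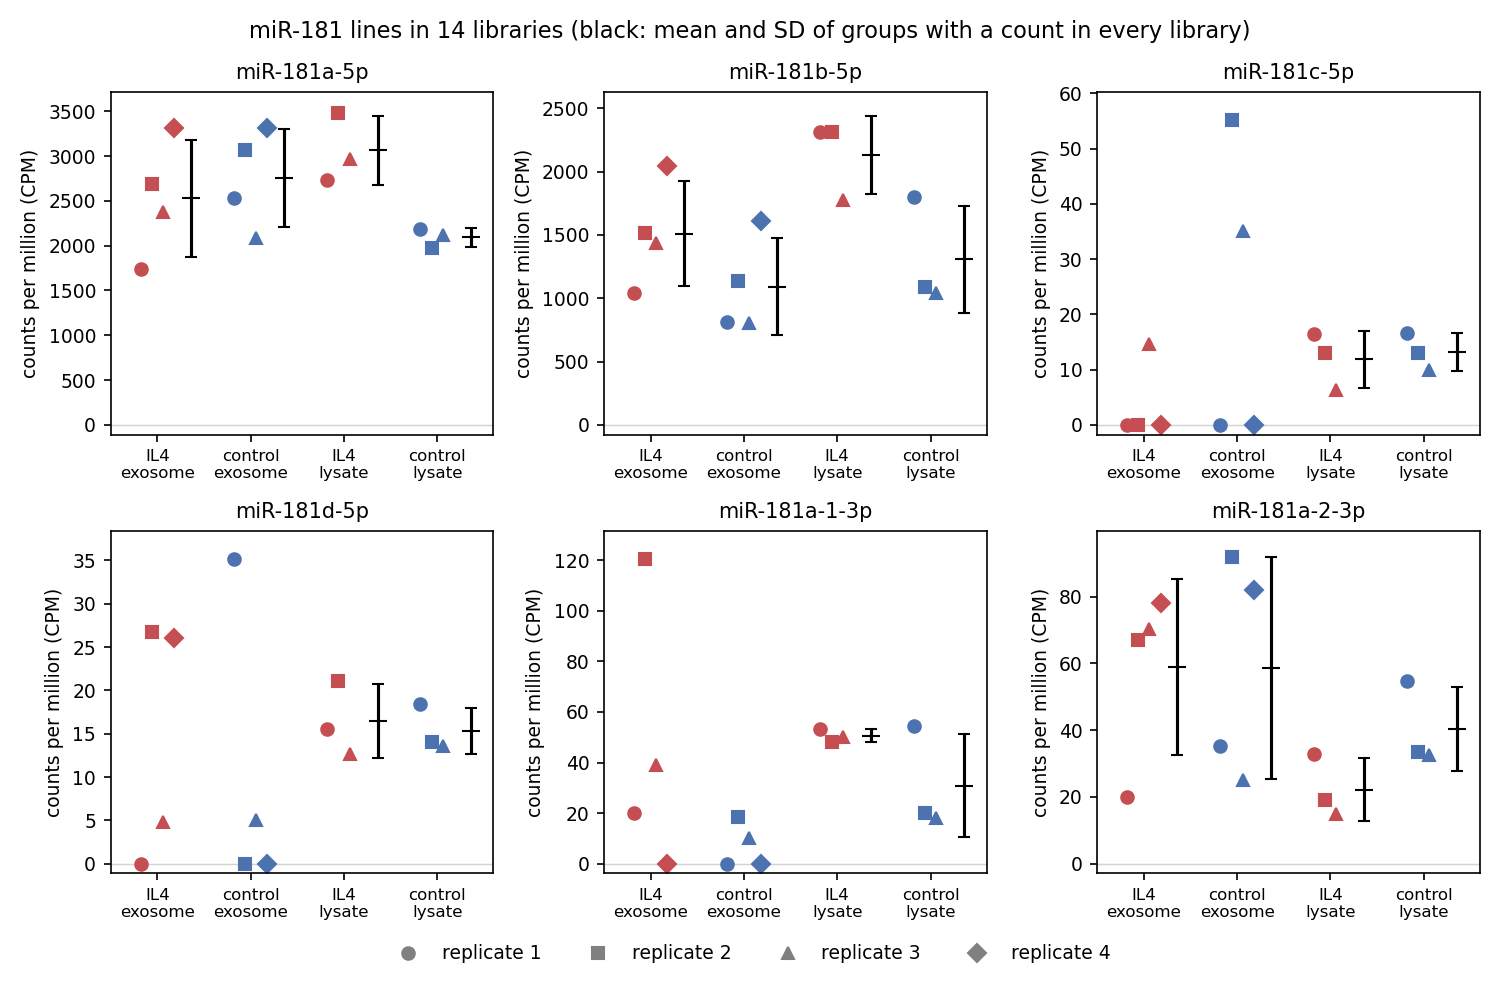
CPM of each miR-181 line (vertical axes, linear, a separate scale per panel) in the 4 groups; each point is a library, shapes are replicates, and black bars are the mean and SD where every library of the group had a count. For miR-181a-5p the IL4 lysates (2735 to 3484 CPM) lie above the control lysates (1975 to 2188 CPM), while the exosome groups overlap.

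The first comparison asked how the family differed with IL4 in the cells themselves. The abundant guide strands were higher in IL4 lysates: miR-181a-5p was 1.69-fold and miR-181b-5p 1.89-fold higher in IL4 than in control lysates. The guides of the chromosome 8 pair, miR-181c-5p and miR-181d-5p, and the 3p arms did not pass the test.

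Levels of miR-181a-5p were 2735, 3484 and 2972 CPM in IL4 lysate replicates 1 to 3, against 2188, 1975 and 2118 CPM in control lysate replicates 1 to 3. Every IL4 lysate lay above every control lysate; among all 443 lines tested, 8.8% had IL4 lysates wholly above controls. The log2 fold change was 0.76 (SE 0.18, adjusted p = 0.0419, edgeR's quasi-likelihood test with Benjamini-Hochberg adjustment over all lines, 3 against 3 libraries).

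For miR-181b-5p the levels were 2310, 2311 and 1773 CPM in IL4 lysates 1 to 3, against 1797, 1086 and 1039 CPM in control lysates 1 to 3. The groups touched, since IL4 replicate 3 fell just below control replicate 1, yet at each of 3 of 3 dates the IL4 library was higher, by 1.29 to 2.13-fold in CPM. Its log2 fold change was 0.92 (SE 0.19, adjusted p = 0.0270, edgeR).

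Thus 2 of the 6 members were called, both higher, where 5.87% of all lines tested were called higher, 1.35% lower and 7.22% in either direction. With library totals in place of TMM the split of all calls moved to 8 higher and 6 lower, against 26 and 6. The median log2 fold change was 0.53 over the 6 members and 0.0009 over all lines tested. Fold changes are on edgeR's TMM scale, which corrects for shifts in composition; with scaling to the library totals alone the median of all lines moved to -0.19, and miR-181a-5p then had 0.55 (adjusted p = 0.150) and miR-181b-5p 0.70 (adjusted p = 0.223). Both calls also ended without IL4 replicate 2 or 3 or control replicate 2 or 3, where adjusted p ran from 0.125 to 0.322, and the call of miR-181a-5p ended without control replicate 1 (adjusted p = 0.142) and with DESeq2-type (RLE) size factors (adjusted p = 0.0575). In bulk lysates, more cells of a type and more RNA per cell cannot be told apart.

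**Figure D2:**
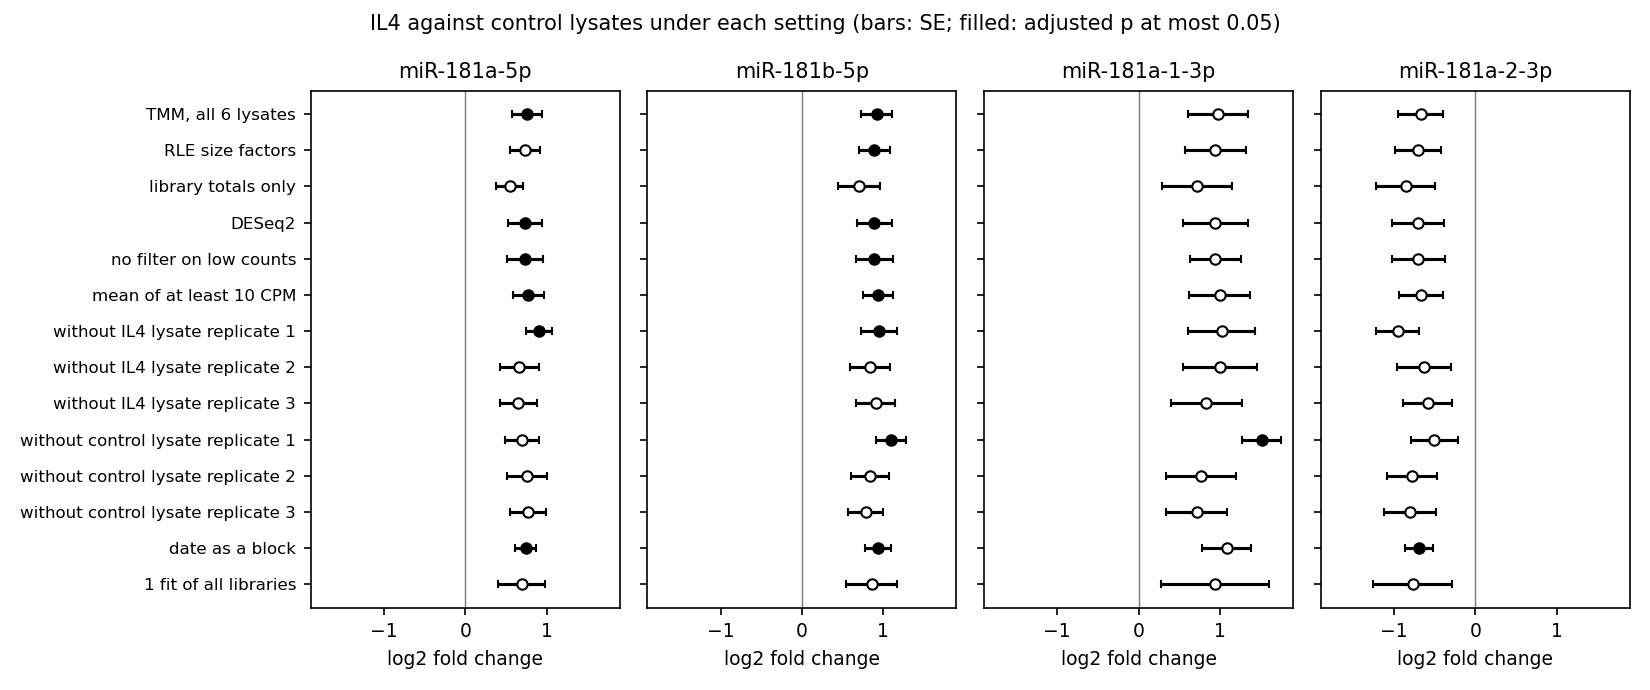
Log2 fold changes of IL4 against control lysates (horizontal axis, bars are SE) for 4 members under each processing setting; filled points have an adjusted p of at most 0.05. The values of miR-181a-5p stay between 0.55 and 0.91 and those of miR-181b-5p between 0.70 and 1.10, while which settings call them differs.

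The lines from chromosome 8 stayed low. Levels of miR-181c-5p were 16.4, 12.9 and 6.23 CPM in IL4 lysates 1 to 3, against 16.7, 13.0 and 9.98 CPM in control lysates 1 to 3. The groups overlapped, and the fold change was not distinguishable from none (log2 0.01, SE 0.33, adjusted p = 0.999). For miR-181d-5p they were 15.5, 21.1 and 12.7 CPM in IL4 lysates, against 18.4, 14.0 and 13.6 CPM in control lysates, again overlapping (log2 0.30, SE 0.25, adjusted p = 0.760). The Mir23a cluster, whose miR-23a, miR-27a and miR-24 act in haematopoietic cells, lies 29556 bases from Mir181c on the same chromosome. Of its 5 lines all were tested in lysates and 0 were called by edgeR (0 at an unadjusted p under 0.05, and 0 by DESeq2). One of them, miR-24-2-5p, was listed at 0 in control lysate replicate 2, against 860 and 764 CPM in control lysates 1 and 3, so no direction is read from it.

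Since the guide of miR-181a is the same from both of its genes, its 3p arms were compared to ask which copy moved. Neither arm passed the test over all lines. Levels of miR-181a-1-3p, from chromosome 1, were 53.3, 48.2 and 50.2 CPM in IL4 lysates 1 to 3, against 54.3, 19.9 and 18.1 CPM in control lysates 1 to 3. Control replicate 1 was as high as the IL4 lysates, and the other controls lay well below them. The log2 fold change was 0.97 (SE 0.37, adjusted p = 0.249, edgeR), which missed the threshold; without control replicate 1 it was 1.52 (SE 0.24, adjusted p = 0.0244).

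Levels of miR-181a-2-3p, from chromosome 2, were 32.8, 19.03 and 14.8 CPM in IL4 lysates 1 to 3, against 54.8, 33.4 and 32.7 CPM in control lysates 1 to 3. At 3 of 3 dates the IL4 library held 0.453 to 0.599 times the level of its control, although IL4 replicate 1 reached the lowest controls. The log2 fold change was -0.67 (SE 0.28, adjusted p = 0.325). A block for the date gave -0.69 (SE 0.17), which was called (adjusted p = 0.0333). The block left miR-181a-1-3p just short (1.08, SE 0.30, adjusted p = 0.0592) and kept miR-181a-5p and miR-181b-5p called.

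The share of miR-181a-1-3p among both 3p arms does not depend on scaling between libraries. It was 61.9%, 71.7% and 77.2% in IL4 lysates 1 to 3, against 49.8%, 37.3% and 35.7% in control lysates 1 to 3. All IL4 lysates lay above all control lysates. Exact Clopper-Pearson 95% intervals, which cover counting error only, did not overlap within any date: at the first date they were 57.5% to 66.2% with IL4 and 45.8% to 53.7% in the control. The mean share was 70.3% ± 7.8 in IL4 lysates and 40.9% ± 7.7 in control lysates (SD, n = 3 each), a difference of 29.4 percentage points (exact permutation test, two-sided, p = 0.1, the smallest that 3 against 3 allows; adjusted p = 0.229 over 12 tests of ratios within libraries). Leaving out any 1 lysate gave 25.9 to 33.8 points. The permutation ignores the shared dates. Flipping signs of the within-date differences (exact sign-flip test) gave p = 0.25, the smallest that 3 dates allow. The share describes the 3p arms only, and how the guide divides between the genes was not measured. These arms differ at only 2 of 22 positions, and how well reads were assigned between them was not tested.

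**Figure D3:**
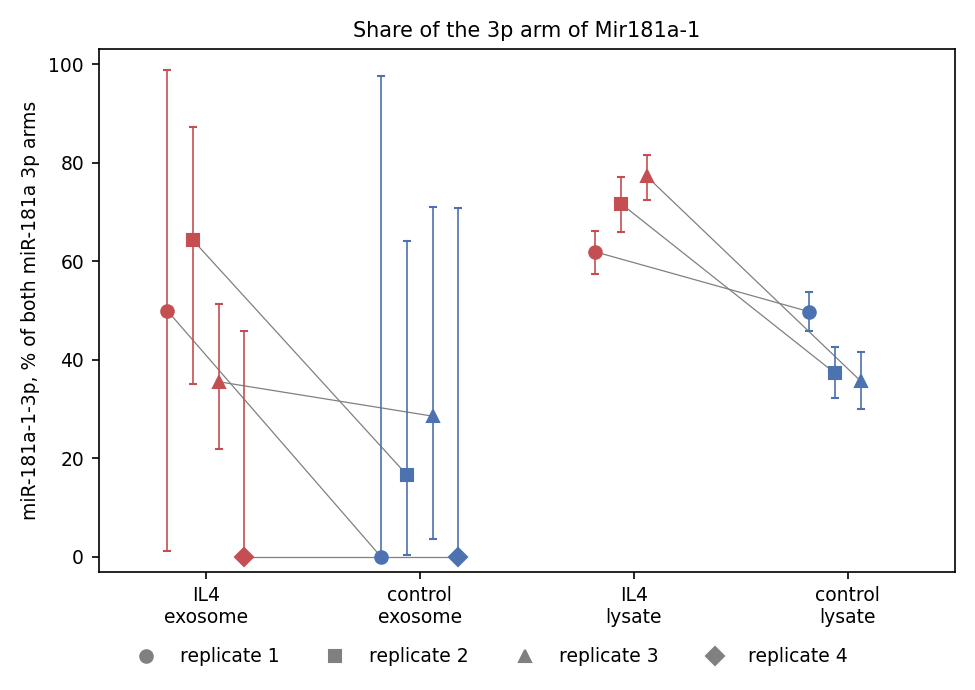
Share of miR-181a-1-3p in the counts of both miR-181a 3p arms, in percent, per library; bars are exact 95% intervals of counting error and grey lines join libraries of 1 date. In lysates the IL4 libraries (61.9% to 77.2%) lie above the controls (35.7% to 49.8%), and in exosomes the intervals are wide.

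Of the 3p arms of miR-181b only miR-181b-1-3p was high enough to test. In lysates miR-181b-1-3p, the neighbour of miR-181a-1 on chromosome 1, had 266 counts with IL4 and 270 in controls (log2 fold change 0.36, SE 0.38, adjusted p = 0.820). Its levels averaged 16.7 CPM in IL4 lysates and 14.8 CPM in control lysates. The IL4 library was higher at 2 of 3 dates (0.543 to 1.48 times its control), so its direction was mixed. From chromosome 2, miR-181b-2-3p had 6 counts with IL4 and 18 in controls. From chromosome 8, miR-181c-3p had 19 and 14, and miR-181d-3p had 0 and 2. None of miR-181b-2-3p, miR-181c-3p and miR-181d-3p was high enough to test. The ratio of miR-181a-5p to the summed 3p arms was 31.7, 51.7 and 45.6 in IL4 lysates and 20.1, 37.0 and 41.6 in control lysates. IL4 lysates had the higher ratio at 3 of 3 dates, but the groups overlapped (log2 difference 0.43, exact permutation p = 0.4, adjusted p = 0.48).

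Around the family, 4 of 16 other miRNAs known in blood cell formation were called in lysates, 1 higher and 3 lower, where 5.87% of all lines tested were called higher and 1.35% lower. Of these miR-125b-5p, a regulator of stem cells and macrophage activation, rose (log2 1.30). Both arms of miR-223, a brake on myeloid cells, fell (3p arm -1.24, 5p arm -2.11), as did miR-146a-5p, a brake on NF-kB signalling (-2.26). The median over all 16 was -0.18, against 0.0009 over all lines tested. The lymphocyte markers, the arms of miR-150, had counts in 2 of 2 lines in both lysate groups and summed to 11.6 to 20.8 CPM in IL4 lysates and 10.3 to 29.4 CPM in control lysates.

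Over the 6 lysates, the lines whose log2 level followed miR-181a-5p most closely were miR-378a-3p (Pearson r = 0.98), miR-500-3p (0.97), miR-146b-5p (0.97), miR-149-5p (0.97) and miR-501-3p (0.96), out of 443. Its sister miR-181b-5p, at r = 0.82, ranked 37. Over all 14 libraries miR-181b-5p ranked first (r = 0.88) and the closest lines outside the family were miR-340-3p (0.87), miR-378a-3p (0.84), miR-99a-5p (0.81), miR-26b-5p (0.81) and let-7c-5p (0.81), out of 338. These are descriptions: the libraries share treatment, compartment and scaling.

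The second comparison asked whether the exosomes followed the cells. They did not show a called change in any member. Only miR-181a-5p and miR-181b-5p were high enough to test, and edgeR called 0 of these (0 at an unadjusted p under 0.05, and 0 by DESeq2). Of all 182 lines 0.549% were called, all of them higher (0% lower), and 6.59% had an unadjusted p under 0.05.

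In IL4 exosomes 1 to 4 miR-181a-5p had 1739, 2693, 2378 and 3310 CPM, against 2534, 3071, 2090 and 3308 CPM in control exosomes 1 to 4. The groups overlapped throughout and IL4 was higher at 2 of 4 dates (log2 0.03, SE 0.25, adjusted p = 0.989). For miR-181b-5p the levels were 1039, 1514, 1438 and 2046 CPM in IL4 exosomes, against 809, 1140, 804 and 1613 CPM in control exosomes. The groups overlapped, but within each of 4 of 4 dates the IL4 library was higher, by 1.27 to 1.79-fold. Its log2 fold change was 0.61 (SE 0.32, adjusted p = 0.804), and the block for the date gave 0.66 (SE 0.20, adjusted p = 0.162).

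The balance of these guides was also compared within each library. The ratio of miR-181a-5p to miR-181b-5p counts was 1.67, 1.78, 1.65 and 1.62 in IL4 exosomes 1 to 4, against 3.13, 2.69, 2.60 and 2.05 in control exosomes 1 to 4. Every IL4 exosome lay below every control exosome, and the IL4 libraries were close to each other. Geometric means were 1.68 with IL4 and 2.57 in controls, a log2 difference of -0.62 (exact permutation test, two-sided, p = 0.0286, the smallest that 4 against 4 allows). After adjustment over the 12 ratio tests this did not pass (adjusted p = 0.229). Within dates, the exact sign-flip test gave p = 0.125, the smallest that 4 dates allow. Counting error is not small here: the shallowest pair, of 25 January, held 87 and 52 counts with IL4 and 72 and 23 in the control, so that miR-181a-5p was 62.6% of the pair with IL4 (exact 95% interval 54.0% to 70.6%) and 75.8% in the control (65.9% to 84.0%). Such intervals overlapped at every date except that of replicate 3 (59.9% to 64.7% with IL4 and 68.4% to 75.8% in the control). The libraries of 25 January also held the most epithelial miR-203 (miR-203-3p at 100440 CPM with IL4 and 47542 CPM in the control). Without both of them the log2 difference was -0.53. Some markers of other cells were lower with IL4 in the same exosomes. At 4 of 4 dates the IL4 library had less miR-126a-5p (0.518 to 0.638 times its control) and miR-126a-3p (0.505 to 0.988), which are endothelial. It also had less of the erythroid miR-451a (0.439 to 0.806) and of the lymphocyte miR-150-5p (0.407 to 0.973). None of these 4 lines was called by edgeR (adjusted p 0.684 to 0.862). The erythroid miR-144-3p was higher with IL4 at 1 of 4 dates (1.38 times its control). Both tested epithelial lines had positive log2 fold changes (median 1.51). The 4 myeloid lines also had negative log2 fold changes (median -0.40, against -0.09 over all 182 lines). Those ran from -0.75 for miR-223-3p to -0.13 for miR-142a-3p, which was higher with IL4 at 2 of 4 dates. How many of all lines fell at 4 of 4 dates was not counted. The part of other cells in the ratio was not tested.

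In lysates the same ratio was 1.18, 1.51 and 1.68 with IL4, against 1.22, 1.82 and 2.04 in controls. It was lower with IL4 at 3 of 3 dates, but the groups overlapped and the difference was small (log2 -0.20, exact permutation p = 0.5, adjusted p = 0.5).

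**Figure D4:**
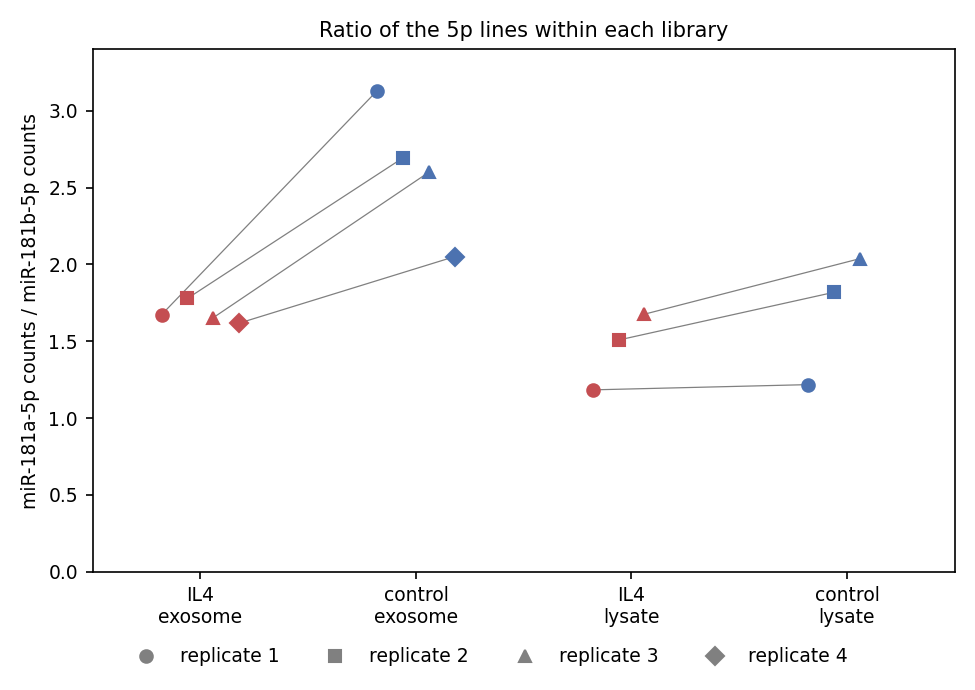
Counts of miR-181a-5p divided by counts of miR-181b-5p in each library (linear axis); grey lines join libraries of 1 date. The IL4 exosomes sit between 1.62 and 1.78, below all control exosomes (2.05 to 3.13), and in lysates the IL4 and control ranges overlap.

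The rarer lines in exosomes were at the limit of counting. Over the 4 IL4 exosomes miR-181a-1-3p had 26 counts (1, 9, 16 and 0 in replicates 1 to 4), against 3 over the 4 control exosomes (0, 1, 2 and 0). Pooled, this is 42.4 CPM with IL4 (exact Poisson 95% interval 27.7 to 62.1) and 9.42 CPM in controls (1.94 to 27.5), intervals that cover counting error only and not the spread between libraries. Counts of miR-181a-2-3p were 1, 5, 29 and 6 in IL4 exosomes and 1, 5, 5 and 3 in control exosomes, or 66.9 CPM pooled (48.0 to 90.7) against 44.0 (24.0 to 73.8). The share of miR-181a-1-3p was 50.0%, 64.3%, 35.6% and 0% in IL4 exosomes and 0%, 16.7%, 28.6% and 0% in control exosomes. IL4 exosomes had the higher share at 3 of 4 dates and an equal 0% in the last, with overlapping groups (difference 26.2 points, exact permutation p = 0.171, adjusted p = 0.257).

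Guides from chromosome 8 were rarer still. Only IL4 exosome replicate 3 (6 counts) and control exosome replicates 2 and 3 (3 and 7 counts) held miR-181c-5p, and miR-181d-5p had 6 counts in IL4 exosomes and 2 in controls. A count of 0 allows up to 3 counts, each worth 35.2 CPM in the shallowest exosome library, so absence cannot be read from these zeros. In exosomes edgeR called 0 of the 4 tested Mir23a cluster lines (0 at an unadjusted p under 0.05, and 0 by DESeq2) and 0 of the 16 blood cell miRNAs (3 at an unadjusted p under 0.05, and 1 by DESeq2).

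The difference between the IL4 effects in exosomes and in lysates was tested directly in 1 fit of all libraries. Of the 4 members tested 0 were called, as were 0 of all 338 lines by edgeR (0%) and by DESeq2, with 14 lines (4.14%) and none of the members at an unadjusted p under 0.05. The difference was -0.60 for miR-181a-5p (SE 0.39, adjusted p = 0.995) and -0.17 for miR-181b-5p (SE 0.42, adjusted p above 0.99). A called rise in lysates and none in exosomes is therefore not shown to be a difference between the compartments.

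The last comparisons set exosomes against lysates of the same treatment, to ask how far the family is released with the cells' other miRNAs. On the TMM scale miR-181b-5p was lower in exosomes than in lysates in both treatments, with log2 fold changes of -1.17 with IL4 (SE 0.29, adjusted p = 0.00417) and -1.0 in controls (SE 0.29, adjusted p = 0.00990). For miR-181a-5p the value was -0.99 with IL4 (SE 0.27, adjusted p = 0.00738) and -0.39 in controls (SE 0.27, adjusted p = 0.240). The 3p arm miR-181a-1-3p was called lower in controls (-2.48, SE 0.99, adjusted p = 0.0480), on 3 exosome counts, and had -0.93 with IL4 (SE 0.70, adjusted p = 0.291). For miR-181a-2-3p the values were 0.83 with IL4 (SE 0.51, adjusted p = 0.193) and -0.34 in controls (SE 0.55, adjusted p = 0.610).

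So 2 of the 4 tested members were called lower in each treatment, where 19.2% of all 338 lines were called lower with IL4 and 21.6% in controls, 30.2% and 29.3% higher, and 49.4% and 50.9% in either direction. In controls the call of miR-181a-1-3p ended without any 1 of the 7 libraries (adjusted p 0.0607 to 0.198) and that of miR-181b-5p without exosome replicate 1 or 3 (adjusted p up to 0.0878); with IL4 both calls ended without lysate replicate 2 (adjusted p = 0.0776 for miR-181a-5p and 0.0524 for miR-181b-5p). The calls also rest on the scaling. In CPM, miR-181a-5p averaged 2530 ± 654 CPM in IL4 exosomes and 3064 ± 383 CPM in IL4 lysates (SD, n = 4 and 3), and 2751 ± 547 CPM in control exosomes and 2094 ± 109 CPM in control lysates, so the direction in controls is the other way round. For miR-181b-5p the means were 1509 ± 414 CPM in IL4 exosomes and 2131 ± 310 CPM in IL4 lysates, and 1092 ± 382 CPM in control exosomes and 1307 ± 425 CPM in control lysates. With scaling to library totals 0 members were called in either treatment, as the median of all lines moved to 0.68 with IL4 and to 0.63 in controls, against -0.01 and -0.18 with TMM. With library totals miR-181a-5p had -0.27 and miR-181b-5p -0.49 with IL4, and 0.40 and -0.26 in controls, all of them below that median. The share of all calls that were higher was then 91.4% with IL4 and 88.7% in controls, against 61.1% and 57.6% with TMM. Among the Mir23a cluster lines, 1 of 5 was called lower in each treatment: miR-27a-5p, with 2, 3, 19 and 1 counts in IL4 exosomes (log2 -1.78, adjusted p = 0.0113) and 0, 1, 0 and 0 counts in control exosomes (adjusted p = 0.000233).

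Ratios within a library do not depend on scaling. The ratio of miR-181a-5p to miR-181b-5p was higher in control exosomes (2.57) than in control lysates (1.65), a log2 difference of 0.64. The exact permutation test gave p = 0.0571 (adjusted p = 0.229), where the smallest possible p was 0.0286. Every control exosome lay above every control lysate, but by a near tie. Control exosome replicate 4 had 2.0508, from 121 and 59 counts, and control lysate replicate 3 had 2.0375. For that exosome, the exact 95% interval of miR-181a-5p as a percentage of the pair covered control lysates 2 and 3 (64.5% and 67.1%). With IL4 the ratio was 1.68 in exosomes and 1.44 in lysates, overlapping (0.22, exact permutation p = 0.114, adjusted p = 0.229). The share of miR-181a-1-3p averaged 37.5% in IL4 exosomes and 70.3% in IL4 lysates, with overlap (-32.8 points, exact permutation p = 0.114, adjusted p = 0.229). In controls the mean shares were 11.3% in exosomes and 40.9% in lysates, without overlap (-29.6 points, exact permutation p = 0.0571, adjusted p = 0.229). The control exosome shares come from only 1, 6, 7 and 3 counts, and their exact 95% intervals reach up to 97.5%, 64.1%, 71.0% and 70.8%, past every control lysate. With counts pooled over libraries the control shares were 17.6% in exosomes and 43.1% in lysates, so a difference in controls is not resolved at this depth.

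Beside these values stand miRNAs of other cells, many of which were far higher in exosomes. All 4 erythroid lines and 2 of 2 endothelial lines (miR-126a) were called higher in exosomes in both treatments, as was miR-150-5p, the 1 tested lymphocyte line. Of the epithelial lines 2 of 3 tested were called higher in each treatment, and of the stromal lines 4 of 4 with IL4 and 3 of 4 in controls. Of the 3 neural lines only miR-128-3p was tested, and it was called in neither treatment (log2 0.47 with IL4 and 0.18 in controls). Among all lines tested, 30.2% were called higher with IL4 and 29.3% in controls. Endothelial lines summed to 4097 to 15918 CPM in IL4 exosomes and 13.4 to 32.6 CPM in IL4 lysates, and to 6862 to 27546 CPM in control exosomes and 27.4 to 33.9 CPM in control lysates. The lymphocyte lines summed to 639 to 1380 CPM in IL4 exosomes and 11.6 to 20.8 CPM in IL4 lysates, and to 684 to 1865 CPM in control exosomes and 10.3 to 29.4 CPM in control lysates. Epithelial lines summed to 257 to 104770 CPM in IL4 exosomes and 57.0 to 95.5 CPM in IL4 lysates, and to 683 to 48668 CPM in control exosomes and 87.0 to 108 CPM in control lysates. Stromal lines summed to 1499 to 3644 CPM in IL4 exosomes and 23.4 to 401 CPM in IL4 lysates, and to 2215 to 4065 CPM in control exosomes and 62.0 to 291 CPM in control lysates. Of all these lines only 2 were at 0 in a whole group: the epithelial miR-205-5p in both IL4 and control lysates, and the neural miR-124-3p in control lysates. Lymphocytes and endothelium are known to express miR-181a and miR-181b, and the part of RNA from other cells in the exosome values was not tested.

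**Figure D5:**
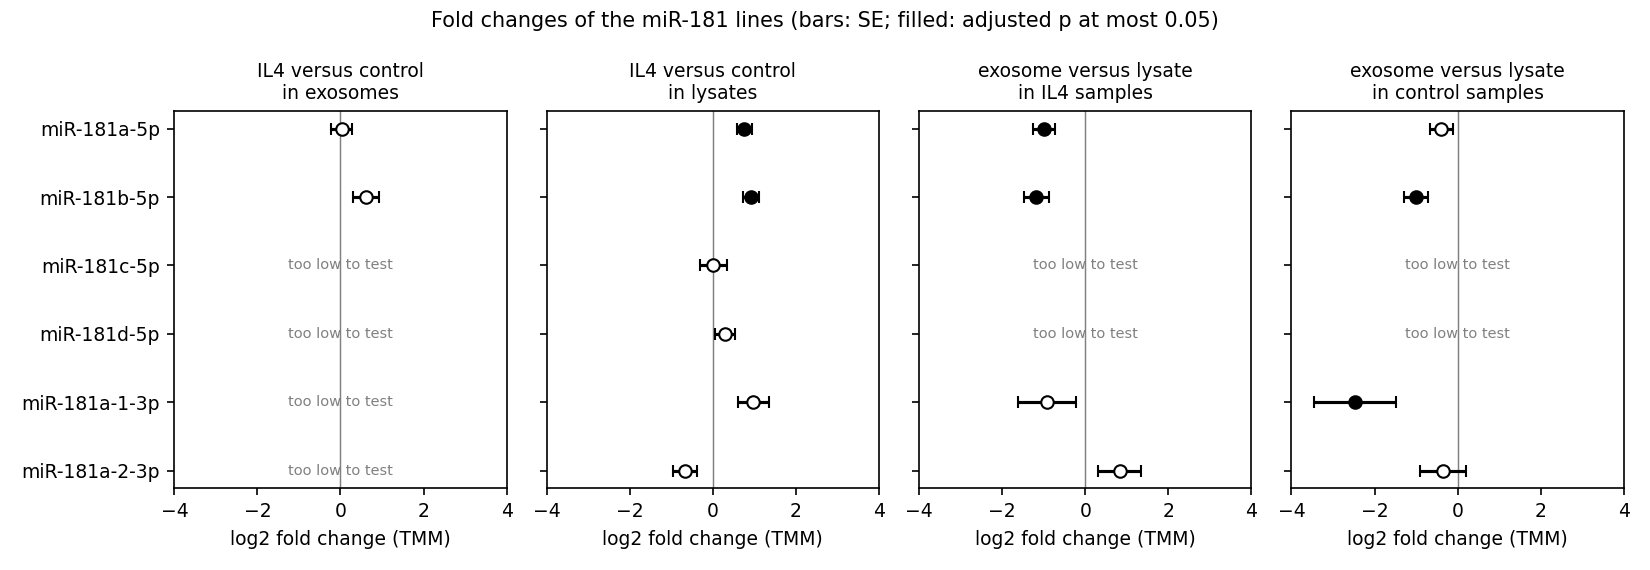
Log2 fold changes on the TMM scale (horizontal axis, bars are SE) of the 6 members in 4 comparisons; filled points have an adjusted p of at most 0.05. Filled points are miR-181a-5p and miR-181b-5p in lysates with IL4 and in exosomes against lysates with IL4, and miR-181b-5p and miR-181a-1-3p in exosomes against lysates in controls.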

How the data were processed

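The deposited table holds raw counts per mature miRNA, as its name and whole numbers show, with no normalization by the authors. Per the submitters' processing notes cutadapt and the build mm10 were used; for the aligner, counting program, annotation and strand setting: not given in the sources used here. Columns were matched to samples by title, and 0 were left unused. All replicate pairs differed by more than sampling noise (chi-square over degrees of freedom at least 21.0).

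Counts were tested with edgeR 4.0.16 (R 4.3.3): filterByExpr, TMM, glmQLFit and glmQLFTest, two-sided, Benjamini-Hochberg adjustment over all lines tested, threshold 0.05. IL4 effects were fitted within a compartment (443 lines in lysates, 182 in exosomes) and the other comparisons over all 14 libraries (338). SE is the absolute log2 fold change over the square root of F. Ratios within libraries (pseudocount 0.5) were tested by exact permutation of the absolute mean difference with scipy 1.17.1. Within-date differences of ratios were tested by exact sign flips, without adjustment. Alternatives were DESeq2 1.42.0, other scalings and filters, thinned lysates, the date as a block, and each library left out. The edgeR fit was tried on simulated counts with larger fold changes than those of miR-181a-5p and miR-181b-5p in lysates. The tests of ratios were not tried on simulated data. Dates come from the titles, and same-date libraries deviated together (correlations 0.256 to 0.611 in lysates and 0.186 to 0.725 in exosomes).

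The text names the 6 members, the other miR-181 arms, called lines of the Mir23a cluster and the 5 lines most correlated with miR-181a-5p over 14 libraries and over 6 lysates. Called haematopoietic lines, miR-24-2-5p and single marker lines were named after their values were seen. The members and lists were chosen with earlier results of these data known.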

Additional observations from a re-analysis of the deposited data

Results flagged for a closer look

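Of 20 sets of 4 exosome libraries checked (the 6 members, their sum and 3 ratios in 2 groups), 2 held a library far from the other 3. The rule used (Dixon's) flags about 1 in 20 sets of normal values. That rate does not apply to these 2 sets, which hold 0s and few counts. The level of miR-181c-5p in IL4 exosome replicate 3 was 14.6 CPM, from 6 counts in the deepest exosome library, and the others had 0. The level of miR-181d-5p in control exosome replicate 1 was 35.2 CPM, which is 1 count in the shallowest library.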

How the results depend on the processing

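In lysates the number of members called with IL4 was 2, and 1 with RLE size factors, 0 with library totals, 0 in 1 fit of all libraries and 0 to 2 when 1 library was left out; with the replicate block by date it was 3, and the block changed no other call of a member. In exosomes it was 0 in all 16 alternatives, with the block and without both libraries of 25 January (chosen after seeing the data) too. For exosomes against lysates in controls it was 2 of 4 tested, and 0 with RLE size factors, library totals or DESeq2. It was also 0 with lysates thinned to the mean exosome total, where only 2 members were tested. In a fit of the 2 groups alone, with 3 tested, it was 0, and without 1 library 0 to 1. With IL4 it was 2 of 4 tested, and 0 with library totals, 1 of 2 tested after thinning and 0 to 2 without 1 library. The cause was not tested. Signs turned for lines that were not called. In lysates miR-181c-5p (0.01) had -0.016 with RLE, -0.15 with totals, -0.016 with DESeq2, -0.014 with no filter, -0.022 with the block and -0.20 to 0.21 without 1 library. In exosomes miR-181a-5p had -0.12 with totals. In control exosomes against lysates miR-181a-5p had 0.014 with RLE, 0.40 with totals and 0.12 after thinning, and miR-181a-2-3p 0.027 with RLE, 0.43 with totals and -0.70 to 0.36 without 1 library. The difference of IL4 effects for miR-181b-5p was 0.10 with no filter and -0.44 to 0.22 without 1 library. Differences in the 3 ratios kept their direction in every alternative run. Over all lines, calls in lysates were 32, against 14 with totals, 50 with the block, 4 in 1 fit of all libraries and 2 to 34 without 1 library; in exosomes 1, against 0 with totals, 6 with DESeq2, 12 with no filter and 0 to 2 without 1 library; for exosomes against lysates 50.9% of lines in controls and 49.4% with IL4, against 41.7% and 41.3% after thinning; and for the difference of IL4 effects 0, against 3 with no filter. Exosomes and lysates were not paired because no title date is shared between them. Some dates are close (lysates of 23 January and 14 March, exosomes of 25 January and 16 March). No label says what the date marks, so a shared culture is neither shown nor excluded. Depth limits every exosome line below some 100 CPM.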
